A study of Homo sapiens with 18 samples.

Results

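The HIT zinc-finger family was followed through ZNHIT1, ZNHIT2, ZNHIT3 and ZNHIT6, 4 genes picked by their symbols from 26372 in the deposited expression table. All 4 were found and all 4 passed the filter on low values, a mean of at least 1 FPKM (mapped fragments relative to the length of the transcript and the size of the library), which left 13785 genes to test. The cells were SH-SY5Y, an established human neuroblastoma line that turns neuron-like in differentiation medium. Every library came from cells infected with a FUGW-derived lentivirus carrying ZNHIT3, as the wild-type sequence (WT), with the C14R substitution, or with a deletion. RNA was taken at day 0 or at day 18 of differentiation with BDNF, KCl, db-cAMP and all-trans retinoic acid, which gave 6 groups of 3 libraries. All groups therefore carry a ZNHIT3 construct, libraries without one were not analysed here, and delivered and endogenous ZNHIT3 share a single value per library. The labels do not give the promoter kept in the construct, nor say that the 3 libraries of a group came from separate infections or cultures, so p-values measure only the spread between these libraries.

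The family is defined by a small zinc-binding domain, the HIT finger, in which 7 cysteines and 1 histidine hold the metal. Its members are mostly adaptors for the RUVBL1 and RUVBL2 ATPases and for the large RNA-protein or chromatin complexes that these help to build. ZNHIT3 pairs with NUFIP1, and ZNHIT6 (also called BCD1) acts beside them, in assembling box C/D snoRNPs, the particles that guide methylation of ribosomal RNA. ZNHIT2 binds RUVBL2 and takes part in the assembly of the U5 spliceosomal particle. ZNHIT1 is a subunit of the SRCAP complex, which places the histone variant H2A.Z into nucleosomes. The questions asked of the data were whether ZNHIT1, ZNHIT2 and ZNHIT6 change when the amount of ZNHIT3 differs between constructs, and whether any member changes with differentiation.

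The coding stretch of the finger is shown for each member because it is what the family shares and because codon 14 of ZNHIT3, the substituted residue, is one of its cysteines. Sequences are from GENCODE release 29 on GRCh38, in the coding direction, with the 7 cysteine codons and the histidine codon in capitals.
ZNHIT1: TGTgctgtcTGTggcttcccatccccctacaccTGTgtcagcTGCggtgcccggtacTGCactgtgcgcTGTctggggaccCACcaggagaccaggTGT
ZNHIT2: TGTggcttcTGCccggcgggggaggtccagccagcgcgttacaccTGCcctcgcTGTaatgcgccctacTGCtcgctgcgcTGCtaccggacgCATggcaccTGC
ZNHIT3: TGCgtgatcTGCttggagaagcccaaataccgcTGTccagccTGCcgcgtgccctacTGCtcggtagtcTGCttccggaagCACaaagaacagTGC
ZNHIT6: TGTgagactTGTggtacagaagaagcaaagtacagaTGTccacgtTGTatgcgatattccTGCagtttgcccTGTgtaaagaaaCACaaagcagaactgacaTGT

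The finger takes codons 117 to 149 of 154 in ZNHIT1, in exons 4 and 5 of a gene at chr7:101217668-101224190 on the plus strand. In ZNHIT2 it takes codons 7 to 41 of 403, in the single exon of the coding sequence (gene at chr11:65116403-65117708, minus strand). ZNHIT3 has it at codons 11 to 42 of 155, across exons 1 to 3 (gene at chr17:36486629-36499310, plus strand). ZNHIT6 has it at codons 220 to 254 of 470, in exons 2 and 3 (gene at chr1:85649423-85708433, minus strand). The domain is thus near the start of ZNHIT2 and ZNHIT3, in the middle of ZNHIT6 and at the end of ZNHIT1. A pattern of this spacing that fits all 4 was searched in all coding sequences: a cysteine pair 2 codons apart, 5 to 14 codons, another such pair, then a cysteine after 4 codons, a cysteine after 3, the histidine after 3 and the last cysteine after 2 to 5. The pattern also required a tyrosine or phenylalanine codon 2 places before the third cysteine, so the spacing alone was not searched. Among 19669 coding genes, 4 (0.0203%) held the pattern, and these were the 4 members it was drawn from.

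Both variants can be placed on the ZNHIT3 reference. The first 90 coding bases, with codon 14 (chr17:36486739-36486741, exon 1) in capitals, are shown to place the C14R residue at the second of the 7 cysteines.
ZNHIT3 coding bases 1 to 90: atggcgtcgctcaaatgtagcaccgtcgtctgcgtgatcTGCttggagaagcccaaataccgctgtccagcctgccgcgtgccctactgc
ZNHIT3 coding bases 211 to 300: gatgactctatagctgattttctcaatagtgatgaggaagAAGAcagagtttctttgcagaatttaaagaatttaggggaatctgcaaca
The last line has coding bases 251 to 254 in capitals (chr17:36493971-36493974, exon 4, codons 84 and 85), well past the finger. The deletion is written 251-254, 251-255 and 251-256 in the labels of replicates 1, 2 and 3, without saying whether residues or bases are counted. The reference protein has 155 residues, so the positions fall inside the gene's coding sequence only when counted as bases. In the reference sequence, removal of those 4 bases shifts the frame and the first stop codon then stands at codon 91.

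The libraries matched their labelled cell type and day. Of 8 sympathetic neuroblastoma markers, 7 were at 1 FPKM or more in every library, the exception being TH, and all 5 neuron-like markers were. Presence of the neuron-like markers therefore does not tell the days apart, but their summed level was 639.1 to 693.3 FPKM at day 0 and 1249.6 to 1420.4 at day 18. The summed level of 3 cycling markers was 171.6 to 193.5 FPKM at day 0 and 66.8 to 88.2 at day 18. Of 6 markers of other cell types only COL1A1 reached 1 FPKM in all libraries, and OLIG2 and ALB were at 0 in all day 0 libraries. FPKM sums ran from 553539 to 2222220, with 1.01% to 58.6% of the sum in the small nucleolar RNA SNORD3A. C14R replicate 1 of day 18 had the lowest sum and the lowest SNORD3A share, and no call for a member changed when it was left out. Relative depth, read from the size of single-fragment steps, was 59.0% to 84.7% of the deepest library at day 0 and 82.4% to 100% at day 18. Because FPKM is a share of the library, less of one RNA and more of all others cannot be told apart, nor can fewer cells of a kind and less RNA per cell.

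ZNHIT3 was by far the most abundant member, followed by ZNHIT1, ZNHIT6 and ZNHIT2. Over the 18 libraries ZNHIT3 had 292 to 1193 FPKM, ZNHIT1 38.5 to 48.7, ZNHIT6 5.29 to 7.43 and ZNHIT2 2.26 to 3.92, and the ranges of the 4 genes did not overlap. The highest library exceeded the lowest 4.09-fold for ZNHIT3, 1.74-fold for ZNHIT2, 1.40-fold for ZNHIT6 and 1.26-fold for ZNHIT1. ZNHIT3 ranked between position 113 and position 194 of 26372 genes in the day 0 libraries. At day 18 it ranked 29 to 34 with WT, 60 to 81 with C14R and 159 to 164 with the deletion construct. Its ratio to ZNHIT1, a measure within each library, was 12.3 ± 0.114 (SD, n = 3) with WT, 9.91 ± 0.845 with C14R and 6.35 ± 0.123 with deletion at day 0. At day 18 the same ratio was 25.0 ± 0.203, 15.3 ± 1.02 and 6.66 ± 0.298.

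**Figure D1:**
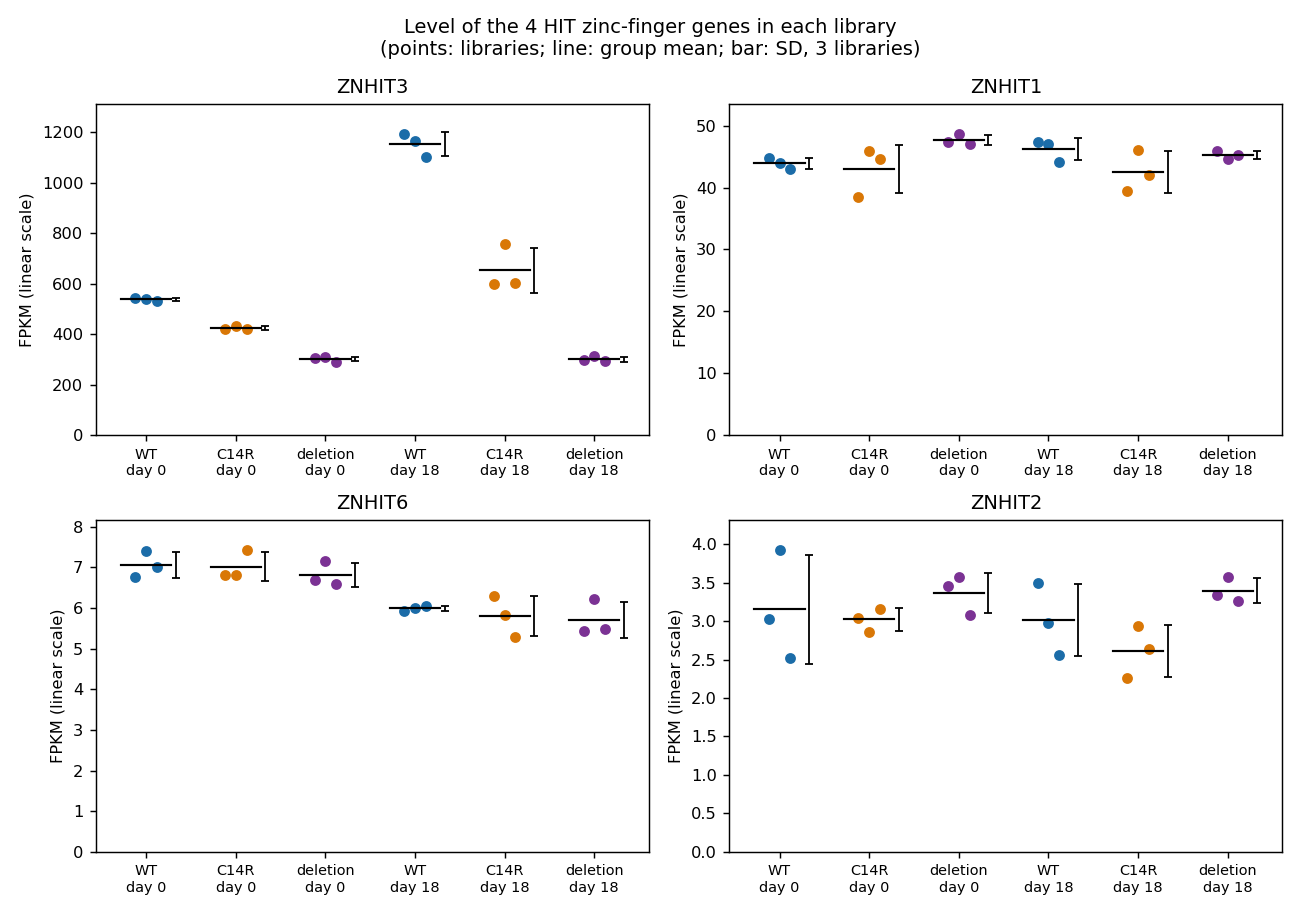
FPKM of each member (linear axes from 0, 1 panel per gene) in the 18 libraries by construct and day, with points for libraries, a line for the group mean and a bar for the SD of 3 libraries. ZNHIT3 steps with construct and day between 292 and 1193 FPKM, ZNHIT6 lies lower at day 18 with every construct, and ZNHIT1 and ZNHIT2 overlap across most groups.

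ZNHIT3, the delivered gene, set the range against which the other members were compared. At day 0 it had 542, 541 and 531 FPKM in the WT libraries, 419, 432 and 421 with C14R, and 306, 310 and 292 with the deletion. At day 18 the values were 1193, 1164 and 1103 with WT, 599.7, 756 and 604 with C14R, and 297.5, 313 and 294 with the deletion. The 3 constructs did not overlap on either day, and WT was highest and the deletion lowest on both. The order of the 6 means was deletion at day 18 (301.5 ± 9.89) and day 0 (302.5 ± 9.40), C14R at day 0 (424 ± 7.09), WT at day 0 (538 ± 6.33), C14R at day 18 (653 ± 88.9) and WT at day 18 (1153 ± 46.1). The deletion groups of the 2 days overlapped, while C14R at day 18 against WT at day 0 was not tested. From WT to deletion the level of ZNHIT3 spanned 0.83 log2 units at day 0 and 1.93 at day 18. The C14R difference from WT at day 0 was -0.34 (SE 0.0659, limma adjusted p = 0.352) and did not pass the threshold of 0.05, while the other 5 construct differences of ZNHIT3 did. In a fit of the compared libraries alone, the day 0 difference passed (limma adjusted p = 0.00966) and that of C14R from WT at day 18 did not (adjusted p = 0.184).

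With this span of ZNHIT3, none of ZNHIT1, ZNHIT2 and ZNHIT6 passed the test in any of the 6 comparisons between constructs. The background of calls was itself very low. At day 0 the share of all tested genes that passed was 0% for C14R against WT (0 genes in limma, 388 at an unadjusted p under 0.05), 0.029% for deletion against WT and 0.058% for C14R against deletion. At day 18 the shares were 0.0363%, 0.0725% and 0.029%. An unadjusted p under 0.05 was seen for 2 of these 18 differences of the 3 genes. These were ZNHIT1 at day 0 and ZNHIT2 at day 18, both in C14R against deletion, and both are described next. Of all tested genes, 9.84% at day 0 and 11.2% at day 18 had such a p in C14R against deletion.

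ZNHIT1, the SRCAP subunit, had 44.7, 43.9 and 43.0 FPKM in the day 0 WT libraries, 38.5, 45.9 and 44.6 with C14R and 47.3, 48.7 and 47.0 with the deletion. All 3 deletion libraries lay above all 6 others of that day. The log2 difference of deletion from WT was 0.12 (95% interval -0.0085 to 0.24, limma adjusted p = 0.803), and that of C14R from deletion was -0.15 (-0.28 to -0.025, unadjusted p = 0.022, adjusted p = 0.417). At day 18 the order was not kept: WT had 47.4, 47.0 and 44.1 FPKM, C14R 39.4, 46.1 and 42.0, and the deletion 45.9, 44.7 and 45.3. Here the deletion libraries lay inside the WT range, with a log2 difference of -0.027 (-0.15 to 0.099, adjusted p = 0.898). C14R was -0.12 from WT (-0.25 to 0.0057, adjusted p = 0.479), and replicate 1 was its lowest library on both days. The 5′ end of ZNHIT1 overlaps PLOD3 on the opposite strand over 753 bp, and whether the authors counted by strand is not given in the sources used here.

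ZNHIT2, the U5 assembly factor, was the lowest member, and its WT libraries were spread widely for such a level. It had 3.03, 3.92 and 2.52 FPKM in the day 0 WT libraries, 3.05, 2.86 and 3.16 with C14R and 3.46, 3.57 and 3.08 with the deletion. At day 18 the values were 3.50, 2.98 and 2.56 with WT, 2.26, 2.93 and 2.63 with C14R and 3.34, 3.58 and 3.27 with the deletion. WT spanned most of the range on both days, so neither variant separated from it. The intervals for deletion against WT were -0.15 to 0.32 at day 0 and -0.10 to 0.37 at day 18 on the log2 scale. At day 18 all C14R libraries lay below all deletion libraries, a log2 difference of -0.29 (-0.53 to -0.052, unadjusted p = 0.0197, limma adjusted p = 0.426). An antisense transcript, AP003068.3, overlaps ZNHIT2 over 302 bp.

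ZNHIT6, which acts beside ZNHIT3 in snoRNP assembly, differed from its WT level by at most 0.061 on the log2 scale in either variant. At day 0 it had 6.77, 7.40 and 7.01 FPKM with WT, 6.81, 6.81 and 7.43 with C14R and 6.70, 7.16 and 6.60 with the deletion. At day 18 it had 5.93, 5.998 and 6.05 FPKM with WT, 6.29, 5.84 and 5.29 with C14R and 5.44, 6.22 and 5.48 with the deletion. The 3 constructs overlapped on both days. Deletion against WT was -0.043 (-0.18 to 0.096, limma adjusted p = 0.923) at day 0 and -0.061 (-0.20 to 0.078, adjusted p = 0.765) at day 18. C14R against WT was -0.0075 (-0.15 to 0.13, adjusted p = 1) and -0.042 (-0.18 to 0.098, adjusted p = 0.868). With ZNHIT3 at 26.1% of its WT level in the day 18 deletion libraries, ZNHIT6 was at 95.3% of its own.

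**Figure D2:**
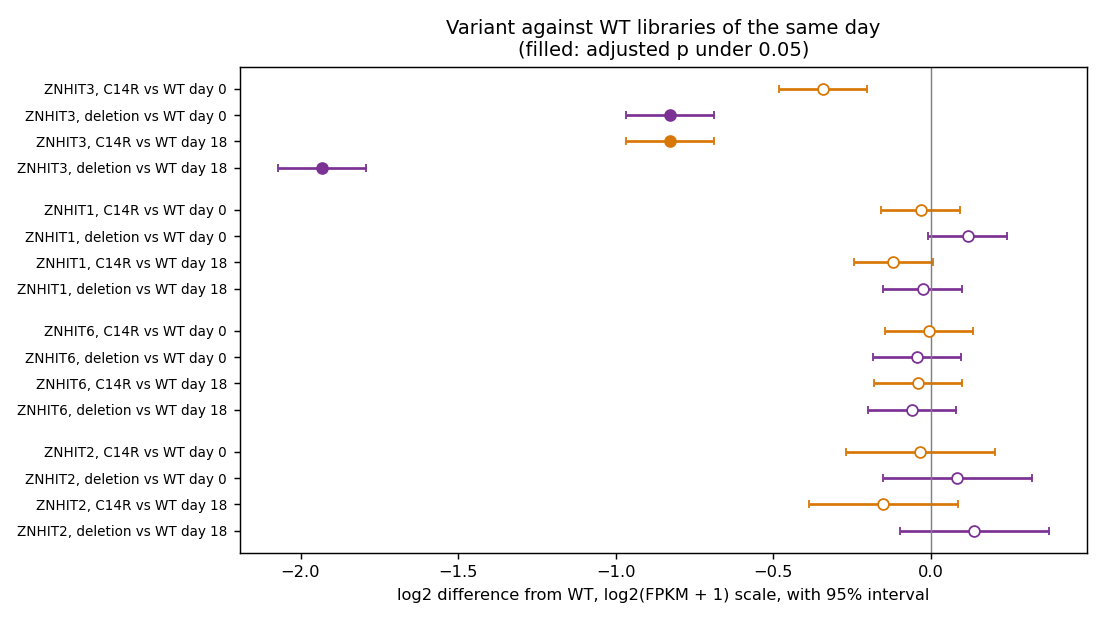
Log2 difference of C14R and of deletion libraries from the WT libraries of the same day for each member (points, filled where the limma adjusted p is under 0.05) with 95% intervals (bars) and a line at 0. ZNHIT3 lies between -1.93 and -0.34, while ZNHIT1, ZNHIT2 and ZNHIT6 lie between -0.15 and 0.14 with every interval reaching 0.

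A single slope over the 3 constructs of a day, weighted by their mean log2 ZNHIT3 level, put the same question in 1 value per gene. Construct and ZNHIT3 amount cannot be told apart in it. Per log2 unit of ZNHIT3, ZNHIT6 had a slope of 0.054 (95% interval -0.11 to 0.22, limma adjusted p = 0.893) at day 0 and 0.031 (-0.041 to 0.10, adjusted p = 0.761) at day 18. ZNHIT2 had -0.11 (-0.39 to 0.17, adjusted p = 0.871) and -0.081 (-0.20 to 0.041, adjusted p = 0.615). ZNHIT1 had -0.15 at day 0 (-0.30 to -0.0016, unadjusted p = 0.0479, adjusted p = 0.701) and 0.0086 at day 18 (-0.056 to 0.073, adjusted p = 0.941). Of all tested genes 7.12% had an unadjusted p under 0.05 for the day 0 slope. The day 0 slope of ZNHIT1 was thus not seen at day 18, where the ZNHIT3 range was wider and the interval narrower. The difference between the 2 slopes was not tested. On each day 1 gene of 13784 passed (0.00725% at day 0 and 0.00725% at day 18). It was STK19 on both days, singled out after its values were seen, with slopes of 2.50 and -1.12 that have opposite signs.

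**Figure D3:**
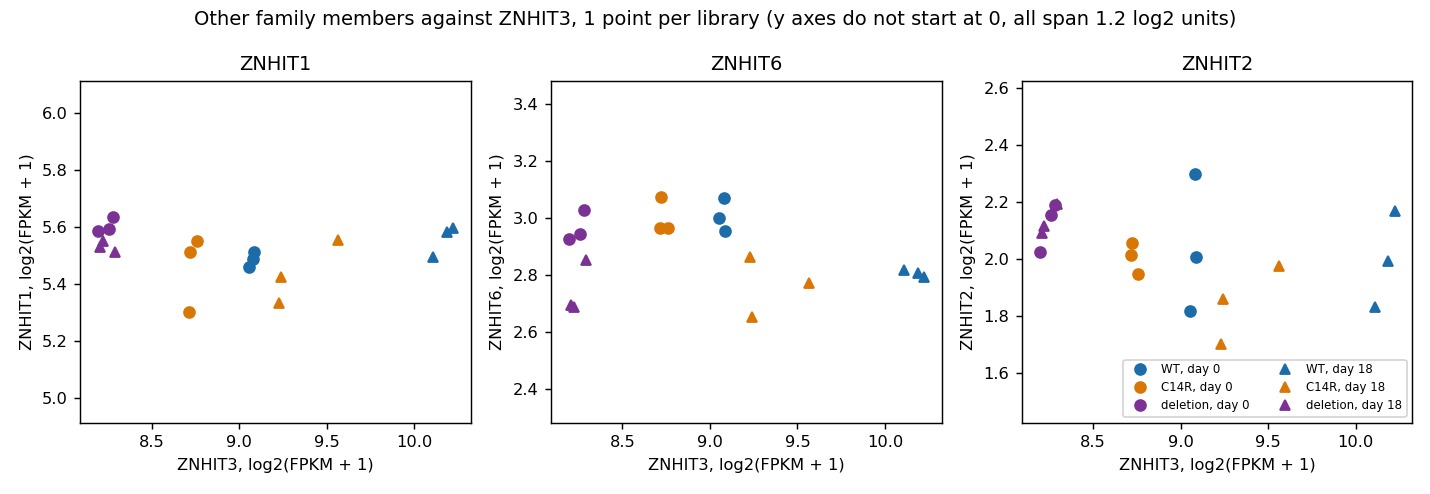
Level of ZNHIT1, ZNHIT6 and ZNHIT2, as log2(FPKM + 1), against that of ZNHIT3 in the same library (circles for day 0, triangles for day 18, coloured by construct). The vertical axes do not start at 0 and span the same number of log2 units. ZNHIT6 stays between 5.29 and 6.29 FPKM at day 18 while ZNHIT3 goes from 294 to 1193, and the 3 day 0 deletion libraries lie above all other day 0 libraries for ZNHIT1.

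Between day 0 and day 18, ZNHIT6 fell with all 3 constructs and ZNHIT3 rose with WT and C14R. The background here was high: 72.2% of tested genes passed in the WT line, 72.9% in the C14R line and 73% in the deletion line. Of the 4 members, 2 passed in the WT line, 2 in the C14R line and 1 in the deletion line, shares below the background in each line, with no test of that difference. ZNHIT6 was at 84.9% of its day 0 level with WT (log2 change -0.20, -0.34 to -0.064, limma adjusted p = 0.0107). It was at 82.8% with C14R (-0.24, -0.38 to -0.098, adjusted p = 0.00379) and at 83.8% with the deletion (-0.22, -0.36 to -0.082, adjusted p = 0.00623). The day 0 libraries, 6.60 to 7.43 FPKM, all lay above the day 18 libraries, 5.29 to 6.29 FPKM. This change was modest for these data, since 71.3% of tested genes had a larger absolute change in the WT line.

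The call for ZNHIT6 depended on how the libraries were scaled. With the small RNA genes left out and the rest rescaled, the median of all genes moved from 0.026, 0.019 and 0.029 to 0.21, 0.18 and 0.22 in the WT, C14R and deletion lines. ZNHIT6 then changed by -0.022, -0.077 and -0.030 (limma adjusted p = 0.781, 0.33 and 0.703). Against the median gene, ZNHIT6 lay 0.23, 0.26 and 0.25 log2 units lower as deposited, and the same to 2 decimals with small RNA genes left out. That setting multiplies all values of a library by 1 factor. Near agreement relative to the median gene therefore follows from the setting for any gene and is no test. Small RNA genes held 31.4% to 80.1% of the FPKM sum. The median-of-ratios scaling factors of the libraries ran only from 0.989 (deletion replicate 1, day 0) to 1.02 (WT replicate 2, day 18). Day 0 WT replicates 1 and 3, with small RNA shares of 80.1% and 55.7%, had factors of 0.991 and 0.999. The part of the small RNA share in the change of ZNHIT6 was not tested beyond this rescaling.

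ZNHIT1 and ZNHIT2 showed no call in the day comparisons as deposited. ZNHIT1 changed by 0.071 with WT (-0.054 to 0.20, limma adjusted p = 0.289), -0.015 with C14R (adjusted p = 0.825) and -0.073 with the deletion (adjusted p = 0.281), with the day 18 deletion libraries all below those of day 0. With small RNA genes left out its changes were 0.28, 0.17 and 0.14, all past the threshold, so its direction cannot be given free of the scaling. Relative to the median gene, the values were 0.045, -0.034 and -0.10 as deposited and 0.069, -0.016 and -0.077 with those genes left out. ZNHIT2 changed by -0.043 with WT (-0.28 to 0.19, adjusted p = 0.737), -0.16 with C14R (adjusted p = 0.206) and 0.011 with the deletion (adjusted p = 0.935).

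ZNHIT3 rose by 1.10 on the log2 scale with WT (limma adjusted p = 9.56e-11), a change exceeded by 11.7% of tested genes, and by 0.61 with C14R (adjusted p = 2.1e-07). With the deletion it changed by -0.0048 (-0.14 to 0.13, adjusted p = 0.951). Relative to the median gene the 3 values were 1.07, 0.60 and -0.034 as deposited and 1.10, 0.62 and -0.0050 with small RNA genes left out. Quantile normalization gave 1.67, 1.06 and 0.23. Not set against the median gene, the deletion value was 0.22 with small RNA genes left out (adjusted p = 0.00548) and 0.22 with quantile normalization (adjusted p = 0.0146), both past the threshold, so the lack of a call with the deletion rests on the scaling.

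**Figure D4:**
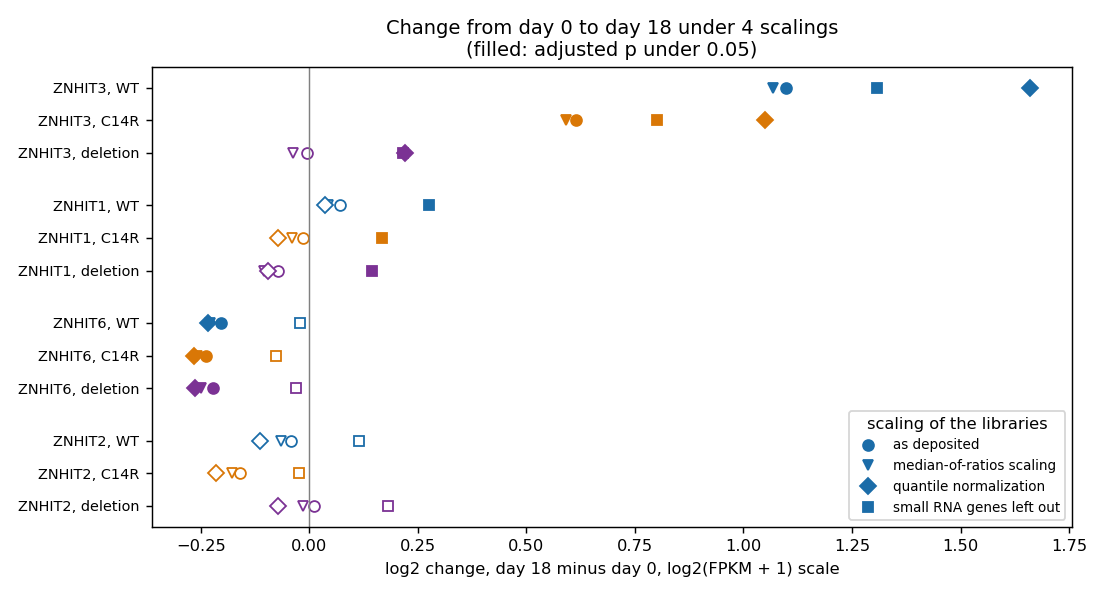
Log2 change from day 0 to day 18 of each member in each line under 4 scalings (marker shapes), coloured by construct and filled where the limma adjusted p is under 0.05. ZNHIT6 is filled and negative under 3 scalings and between -0.077 and -0.022, unfilled, with small RNA genes left out, where ZNHIT1 turns to 0.14 to 0.28 and is filled.

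Whether differentiation changed a member differently between constructs was tested as an interaction. The share of all tested genes that passed was 0% for C14R by day (0 genes in limma, 790 at an unadjusted p under 0.05) and 0.0145% for deletion by day, 2 genes, of which ZNHIT3 was 1. For ZNHIT6 the interactions were -0.034 (-0.23 to 0.16, limma adjusted p = 0.985) for C14R and -0.018 (-0.21 to 0.18, adjusted p = 0.991) for the deletion. ZNHIT1 had -0.087 (adjusted p = 0.953) and -0.14 (adjusted p = 0.79), and ZNHIT2 -0.12 (adjusted p = 0.967) and 0.054 (adjusted p = 0.978). ZNHIT3 itself had -1.10 for the deletion (adjusted p = 1.1e-05) and -0.48 for C14R (adjusted p = 0.27). The C14R value passed without C14R replicate 2 of day 18, the library with 756 FPKM, at -0.59 (adjusted p = 0.000331).

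The protein partners of the members were read from 3 lists chosen by complex, together with 2 further HIT finger genes and 2 chromosomal neighbours of ZNHIT3. None of these 31 genes passed the test in any comparison between constructs, interaction or slope over ZNHIT3. In deletion against WT at day 18, where ZNHIT3 differed most, 1576 of all tested genes (11.4%) had an unadjusted p under 0.05. So did 3 of 9 box C/D assembly genes, 2 of 8 SRCAP and H2A.Z genes and 1 of 10 U5 genes. Among the rest, 1 of 2 neighbours of ZNHIT3 and 0 of 2 further HIT finger genes had such a p. No list was tested against the share of all genes. The 3 box C/D genes were NOP58 at -0.13, NUFIP1 at -0.14 and RPAP3 at -0.16 (limma adjusted p = 0.37 to 0.42).

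With differentiation, the box C/D assembly genes fell for the most part. In the WT line 7 of 9 fell and 2 rose, with a list median of -0.71 beside 0.026 for all tested genes, where 34% of tested genes fell and 38.2% rose. The methyltransferase FBL went from 93.2 ± 2.55 to 24.9 ± 5.59 FPKM (log2 change -1.88, limma adjusted p = 1.87e-11). The core proteins NOP56 (53.9 ± 1.99 to 29.04 ± 1.29) and NOP58 (53.6 ± 0.701 to 31.7 ± 0.965) fell by 0.87 and 0.74. The ATPase RUVBL2 went from 68.4 ± 1.77 to 35.9 ± 3.03 FPKM. NUFIP1, the direct partner of ZNHIT3, moved the other way in this line, from 8.56 ± 0.313 to 9.82 ± 0.365 FPKM (0.18, adjusted p = 0.0102). Its changes with C14R (0.056, adjusted p = 0.391) and the deletion (0.012, adjusted p = 0.855) did not pass, and with small RNA genes left out all 3 passed. RPAP3, which links RUVBL1 and RUVBL2 to chaperones, rose in all 3 lines by 0.29, 0.31 and 0.19. The list had 1 gene higher and 7 lower in the C14R line (median -0.63) and in the deletion line (median -0.76). The value of ZNHIT6 beside these was -0.20 in WT, and the difference between genes was not tested. With small RNA genes left out, 5, 6 and 6 of 9 fell in the WT, C14R and deletion lines, and 2 rose in each. The list medians were then -0.51, -0.45 and -0.54, beside 0.21, 0.18 and 0.22 for all tested genes.

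The SRCAP and H2A.Z list, for ZNHIT1, was mixed. In the WT line 1 of 8 rose and 3 fell, with a median of -0.14, beside 38.2% of all tested genes that rose and 34% that fell. H2AFZ, which encodes the main H2A.Z, went from 321 ± 15.4 to 119 ± 6.36 FPKM (log2 change -1.42, limma adjusted p = 1.52e-14), and the catalytic subunit SRCAP from 18.2 ± 0.315 to 13.7 ± 0.362 FPKM (-0.39). H2AFV, the second H2A.Z gene, rose slightly, from 122 ± 2.36 to 136 ± 2.01 FPKM (0.15, adjusted p = 0.00122). The C14R line had the same counts (median -0.077), and the deletion line had 1 higher and 5 lower (median -0.18). With small RNA genes left out the 3 medians turned to 0.062, 0.10 and 0.029, while those of all tested genes moved to 0.21, 0.18 and 0.22. The sign of the list median, not set against the median gene, thus rests on the scaling. Relative to the median gene the list lay at -0.16, -0.095 and -0.21 as deposited. With small RNA genes left out it lay at -0.14, -0.082 and -0.19, a near agreement that follows from the setting and is no test.

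Among U5 particle and assembly genes, for ZNHIT2, 8 of 10 fell in the WT line and none rose (median -0.47), 8 fell and 1 rose with C14R (-0.40), and 7 fell with the deletion (-0.40). Of all tested genes 34%, 35% and 34.4% fell and 38.2%, 37.9% and 38.6% rose in these lines. PRPF8, the central U5 protein, went from 90.8 ± 1.82 to 65.5 ± 0.531 FPKM (-0.46), and the GTPase EFTUD2 from 30.2 ± 1.41 to 19.2 ± 0.427 FPKM (-0.63). The helicase SNRNP200 fell by 0.48, and TSSC4, a U5 assembly factor, went from 11.3 ± 1.51 to 6.92 ± 1.24 FPKM (-0.63). With small RNA genes left out 6 of 10 fell in each line, and 1, 2 and 2 rose. In the lines as deposited ZNHIT2 made no such change, though its own intervals, such as -0.28 to 0.19 in WT, are wide.

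**Figure D5:**
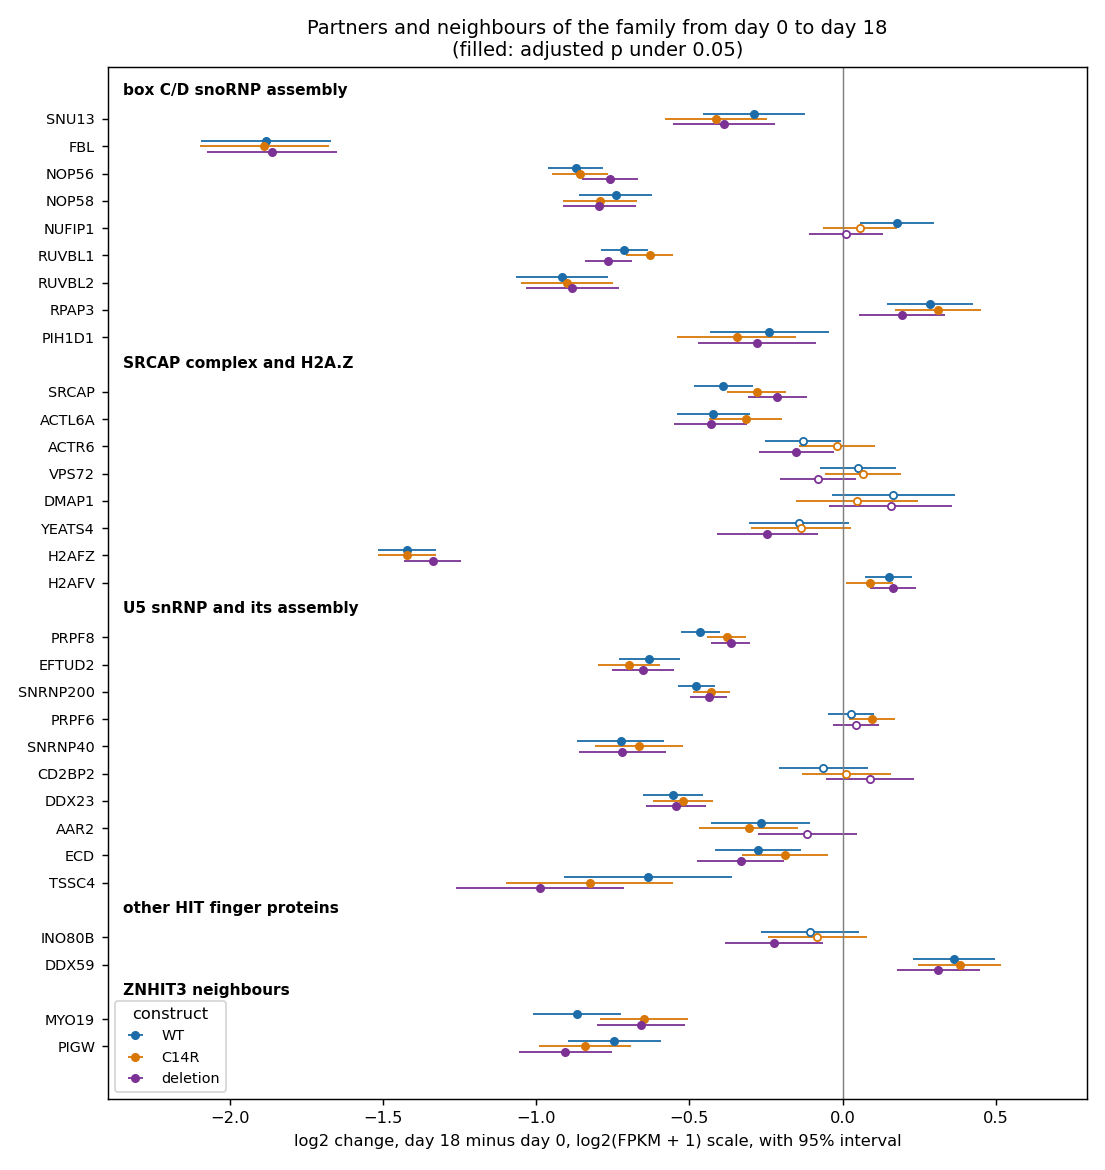
Log2 change from day 0 to day 18, with 95% intervals, for the 31 partner, related and neighbouring genes in the 3 lines (colours), filled where the limma adjusted p is under 0.05. FBL at -1.88 and H2AFZ at -1.42 in WT lie lowest, and RPAP3 and DDX59 lie above 0 with every construct.

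The 2 further HIT finger genes were DDX59, an RNA helicase, and INO80B, a subunit of the INO80 remodelling complex. They are counted with the family by their other names, ZNHIT5 and ZNHIT4. Neither coding sequence held the pattern searched above, which says only that these letters, the tyrosine or phenylalanine included, are absent from it. DDX59 rose with every construct, by 0.36, 0.38 and 0.31 in the WT, C14R and deletion lines (limma adjusted p = 6.79e-05, 3.98e-05 and 0.000308), from 13.1 ± 1.08 to 17.1 ± 0.800 FPKM with WT. INO80B changed by -0.11 and -0.082 in WT and C14R (adjusted p = 0.219 and 0.342) and by -0.22 in the deletion line (adjusted p = 0.0142), a call lost with small RNA genes left out (adjusted p = 0.825). As deposited, 38.2%, 37.9% and 38.6% of all tested genes were called higher in the WT, C14R and deletion lines, and 34%, 35% and 34.4% lower.

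The chromosomal neighbours of ZNHIT3 moved against it. MYO19, a mitochondrial myosin gene, lies on the opposite strand and overlaps ZNHIT3 over 3678 bp, and PIGW, which acts in GPI anchor synthesis, lies inside MYO19. MYO19 went from 13.2 ± 0.571 to 6.81 ± 0.424 FPKM with WT and PIGW from 12.5 ± 0.502 to 7.04 ± 0.410. The log2 changes were -0.87, -0.65 and -0.66 for MYO19 and -0.74, -0.84 and -0.91 for PIGW in the WT, C14R and deletion lines, called in each (limma, largest adjusted p 1.6e-07). Of all tested genes 34%, 35% and 34.4% were called lower in these lines. In the WT and C14R lines the 2 genes fell while ZNHIT3 rose, and in the deletion line they fell while ZNHIT3 changed by -0.0048 as deposited. The ZNHIT3 value joins delivered and endogenous transcripts, so the level from the chromosomal gene alone is unknown.

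Genes with the most similar profile were ranked by Pearson correlation of log2 values over the 18 libraries, among 13781 genes and as a description, since all points share library scaling and day. ZNHIT6 had the closest company: SLC6A15, ICK and MINA each had a correlation of 0.94, 136 genes exceeded 0.9, and 5128 exceeded 0.5. Within the 9 libraries of a day these fell to 0.44 and 0.85 for SLC6A15, 0.91 and 0.66 for ICK and 0.74 and 0.70 for MINA at day 0 and day 18. For ZNHIT3 the nearest were MORC3 (0.84), DUSP19 (0.78) and USP17L7 (0.77), the last a member of a multicopy family whose value is uncertain, and no gene exceeded 0.9. MORC3 had 0.55 within day 0 and 0.87 within day 18. For ZNHIT1 the nearest were NDUFA13 (0.83), HLA-C (0.81) and NCS1 (0.81), and for ZNHIT2 BLOC1S1 (0.84), SIRT6 (0.80) and CCDC9 (0.77). The members themselves were left out of this ranking.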

How the data were processed

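The data were 18 RNA-seq libraries in 6 groups of 3, mapped by the column titles of 1 table, with 0 columns left without a sample. The authors deposited FPKM per gene symbol. Ribosomal RNA was depleted before library preparation, per the labels' protocols. Per the submitters' processing notes the build was hg38 and the tools included TopHat2, STAR and Cufflinks 2.2.1, whose roles, annotation and use of strand are not given in the sources used here. FPKM hold no counts, so absolute depth is unknown and no counting intervals are given. How the authors' counting divided reads of overlapping genes could affect ZNHIT1, ZNHIT2 and ZNHIT3.

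Values were used as log2(FPKM + 1), which understates changes of low genes such as ZNHIT2. The table held 26372 genes. No library had a value above 0 for 4960 of them, and the 13785 averaging 1 FPKM or more were tested. One limma 3.58.1 model in R 4.3.3 held the 6 group means, with a mean-variance trend and Benjamini-Hochberg adjustment over all tested genes in each of 13 comparisons, at a threshold of 0.05. The slope over ZNHIT3 left ZNHIT3 out. An exact permutation test (two-sided) cannot go below 0.1 with 3 libraries a group and calls nothing here. Members were named in every comparison, list genes where they belonged to a list, and 3 genes per member by correlation. The members and lists were chosen with earlier results of these data known. Alternatives were a pseudocount of 0.1, no filter or a mean of at least 5 FPKM, other scalings (median-of-ratios, quantile, small RNA genes left out), a replicate block, only the libraries compared, and each library left out. The fit without C14R replicate 1 of day 18 in comparisons that do not use it was added after seeing the data. Coding sequences and positions came from GENCODE release 29 on GRCh38, the same assembly as hg38, read with Python 3.11.15 and biopython 1.88. Figures used matplotlib 3.10.9. No protein sequence is printed.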

Additional observations from a re-analysis of the deposited data

Results flagged for a closer look

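The effect of the deletion construct on ZNHIT3 differed between the days by a test of the difference itself. ZNHIT3 was 302.5 ± 9.40 FPKM with the deletion and 538 ± 6.33 with WT at day 0, and 301.5 ± 9.89 and 1153 ± 46.1 at day 18 (SD, n = 3). The interaction was -1.10 on the log2 scale (limma adjusted p = 1.1e-05), as all 3 WT libraries were higher at day 18 than at day 0 and the deletion libraries of the 2 days overlapped.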

How the results depend on the processing

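Of the results on the 4 members, 734 recomputed values kept direction and side of the threshold, 40 reversed, of which 4 also gained the threshold, 7 lost the threshold and 3 gained it in the same direction. With small RNA genes left out, ZNHIT6 in C14R against WT at day 0 turned to 0.011. The same setting moved the day change in the WT line to 0.28 for ZNHIT1 (limma adjusted p = 0.000365), 0.11 for ZNHIT2 and -0.022 for ZNHIT6. In the C14R line it gave 0.17 for ZNHIT1 (adjusted p = 0.0161) and -0.077 for ZNHIT6, and in the deletion line 0.14 for ZNHIT1 (adjusted p = 0.0337), 0.22 for ZNHIT3 (adjusted p = 0.00548) and -0.030 for ZNHIT6. The day change in the deletion line also turned to 0.22 for ZNHIT3 (adjusted p = 0.0146) and -0.071 for ZNHIT2 with quantile normalization, and to -0.015 for ZNHIT2 with median-of-ratios scaling. With only the libraries compared, ZNHIT3 in C14R against WT passed at day 0 (-0.34, adjusted p = 0.00966) and lost the threshold at day 18 (-0.83, adjusted p = 0.184). With a mean of at least 5 FPKM, ZNHIT2 was filtered out and has no value.

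Leaving out 1 library at a time changed the sign or call of these log2 values. ZNHIT1 ranged from -0.081 to 0.043 for C14R against WT at day 0, -0.091 to 0.037 for the day change with C14R and -0.0011 to 0.024 for the day 18 slope. ZNHIT2 ranged from -0.15 to 0.094 and -0.030 to 0.21 for C14R and deletion against WT at day 0, -0.16 to 0.086 and -0.038 to 0.044 for the day change with WT and deletion, -0.075 to 0.17 for the deletion interaction and -0.26 to 0.018 for the day 0 slope. ZNHIT6 ranged from -0.044 to 0.023 and -0.092 to 0.014 for C14R against WT at day 0 and day 18, and -0.00059 to 0.067 and -0.031 to 0.075 for C14R against deletion. Its C14R and deletion interactions ranged from -0.085 to 0.021 and -0.071 to 0.014. ZNHIT3 ranged from -0.59 to -0.43 for the C14R interaction and -0.031 to 0.013 for the day change with the deletion. For C14R against deletion at day 0 it ranged from 0.46 to 0.50 and lost the threshold without C14R replicate 1 (adjusted p = 0.0509), C14R replicate 3 (0.0645) or deletion replicate 3 (0.0564). The day calls of ZNHIT6 held in every one of these fits (largest adjusted p 0.0496, 0.0273 and 0.0319 in the WT, C14R and deletion lines). The cause of these changes was not tested.

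The replicate numbers did not pair the libraries: correlations of same-numbered deviations ran from -0.36 to 0.17, and in no comparison were all 3 over 0.1. A replicate block changed no call, and gave -0.20, -0.24 and -0.22 for the day change of ZNHIT6. Counts of all genes called between constructs were small and moved by over 1.5 times: deletion against WT at day 18 had 10, 2 to 26 under other settings and up to 51 without C14R replicate 1 of day 18. C14R against WT at day 18 had 5, 2 to 10 and up to 126 without C14R replicate 2 of day 18. C14R against deletion had 8 at day 0 (1 to 10) and 4 at day 18 (2 to 13), and deletion against WT at day 0 had 4 (1 to 5). The deletion interaction had 2 (1 to 5), the day 0 slope 1 (0 to 4) and the day 18 slope 1 (0 to 11, and 26 without C14R replicate 1 of day 18). C14R against WT at day 0 and the C14R interaction had 0, with up to 1 and 2. The absolute depth behind the values is unknown, so its limit on the low member ZNHIT2 cannot be given.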
